A study of Mus musculus with 24 samples.

Results

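Extraocular muscle, the set of small muscles that move the eye, was compared between mdx and control mice at 56 days of age. The 3 arrays titled as mdx and the 3 titled as control at that age were taken from 24 arrays. The whole set holds control and mdx muscle at 14, 28, 56 and 112 days, 3 arrays to each of its 8 groups. Total RNA was hybridised to 1-colour Affymetrix arrays. The control mice are called wild type in the title of the study and carry no stated treatment, and the mdx mice carry the mdx mutation, a premature stop codon in Dmd, in every cell. The titles give no strain for either group, so the mutation and a difference of strain cannot be told apart. Nor do they say whether each array had an animal of its own, so p-values reflect only how far these arrays spread, which may be technical. Of 12422 probe sets, sets of short probes that each report on 1 transcript, 7453 were bright enough to be tested, and these stood for 5675 genes. In whole muscle, more cells of a type and more RNA per cell cannot be told apart.

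Dystrophin, the product of Dmd, links the actin skeleton of a muscle fibre to a complex of membrane proteins and through it to the matrix outside. Where it is missing, limb muscle goes through rounds of fibre death, inflammation and regeneration, while extraocular muscle is known to be largely spared in Duchenne muscular dystrophy and in the mdx mouse. Macrophages and signalling by interferons, proteins by which cells alert each other to infection or damage, belong to the inflammation seen in dystrophic limb muscle. Fibres of extraocular muscle are known to keep embryonic and cardiac forms of contractile proteins that limb muscle drops after birth.

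Control replicate 2 stood apart from the other arrays of this age. Its log2 levels correlated with those of the other 5 arrays at r between 0.805 and 0.864 across tested probe sets, against 0.898 to 0.957 for the other 10 pairs. It held the highest of the 6 values for 31.2% of tested probe sets and the lowest for 27.8%. Its largest deposited intensity was 26246, against 33701 to 58626 on the other 5 arrays, and its median was 808, against 536 to 636. The array was kept, and the main counts are given with and without it. The labelled tissue was checked against markers of skeletal muscle. Mb, the gene of myoglobin, measured between 3943 and 11750 on the 6 arrays and the M-band gene Myom1 between 3504 and 7339, on a scale on which each array averages 500. A second Mb probe set and Myom2 were too dim to test. Myom2 measured 29.1, 15.3 and 12.3 in control and 122, 131 and 139 in mdx muscle. The summed intensity of the 7 tested muscle markers was 18820 to 31850 in control and 34130 to 48690 in mdx arrays. The groups did not overlap, so equal muscle content is not shown. Myh13, the myosin heavy chain typical of eye muscle, matched no annotated symbol and was not analysed here. Of 19 retinal markers on the array 5 were bright enough to be tested. Their summed intensity was 1248 to 1838 in control and 1577 to 1782 in mdx arrays. Their log2 ratios of mdx over control ran from -0.23 to 0.99, with a median of 0.06 (-0.01 without control replicate 2). In limma 1 of the 5 had an unadjusted p under 0.05, higher in mdx muscle (6.59% of all tested probe sets had), and 0 without control replicate 2. Among the untested, dimmer markers, Sag, the gene of arrestin in rods, lay between 7.6 and 50.6. The photoreceptor factor Crx lay between 26.7 and 174.

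Dmd fell in mdx muscle and Myl4, Plac8 and Uba7 rose, and these 4 of 7453 probe sets (0.0537%, with 0.0403% higher and 0.0134% lower) passed an adjusted p under 0.05 in limma with Benjamini-Hochberg adjustment, which is what "called" means here. Dmd measured 357, 568 and 717 in control replicates 1 to 3 and 104, 143 and 137 in mdx replicates 1 to 3. All mdx arrays lay below the controls, and the control arrays spread more widely than the mdx arrays. The log2 ratio of mdx over control from the fit, called log2 ratio here, was -1.92 ± 0.28 (SE, adjusted p = 0.00323), a level 3.79-fold lower, with means of 547 ± 181 and 128 ± 20.8 (SD, n = 3 arrays each). Where its probes lie along the transcript, before or after the stop codon, was not analysed here.

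Myl4 encodes the alkali light chain of myosin used by embryonic skeletal muscle and by the atrium of the heart. It measured 579, 344 and 442 in the control arrays and 2208, 1061 and 1443 in the mdx arrays. The lowest mdx array lay well above the highest control array. Its log2 ratio was 1.72 ± 0.23 (SE, adjusted p = 0.00144), a fold of 3.29. A second Myl4 probe set measured 462, 807 and 491 in control and 935, 668 and 556 in mdx muscle, a log2 ratio of 0.30 (adjusted p = 0.681). The groups overlapped on that probe set.

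Plac8, a small cysteine-rich protein made by macrophages, granulocytes and other immune cells, measured 406, 269 and 345 in control and 1204, 821 and 1044 in mdx muscle. Its groups did not overlap, and the log2 ratio was 1.55 ± 0.25 (SE, adjusted p = 0.00865), a fold of 2.92. Uba7, the enzyme that activates the interferon-induced protein ISG15 for its attachment to other proteins, measured 278, 227 and 196 in control and 700, 404 and 553 in mdx muscle. Here mdx replicate 1 was the highest and mdx replicate 2 the lowest of the mdx arrays, an order that Plac8 and Myl4 shared. The log2 ratio of Uba7 was 1.17 ± 0.20 (SE, adjusted p = 0.0179), a fold of 2.25.

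**Figure D1:**
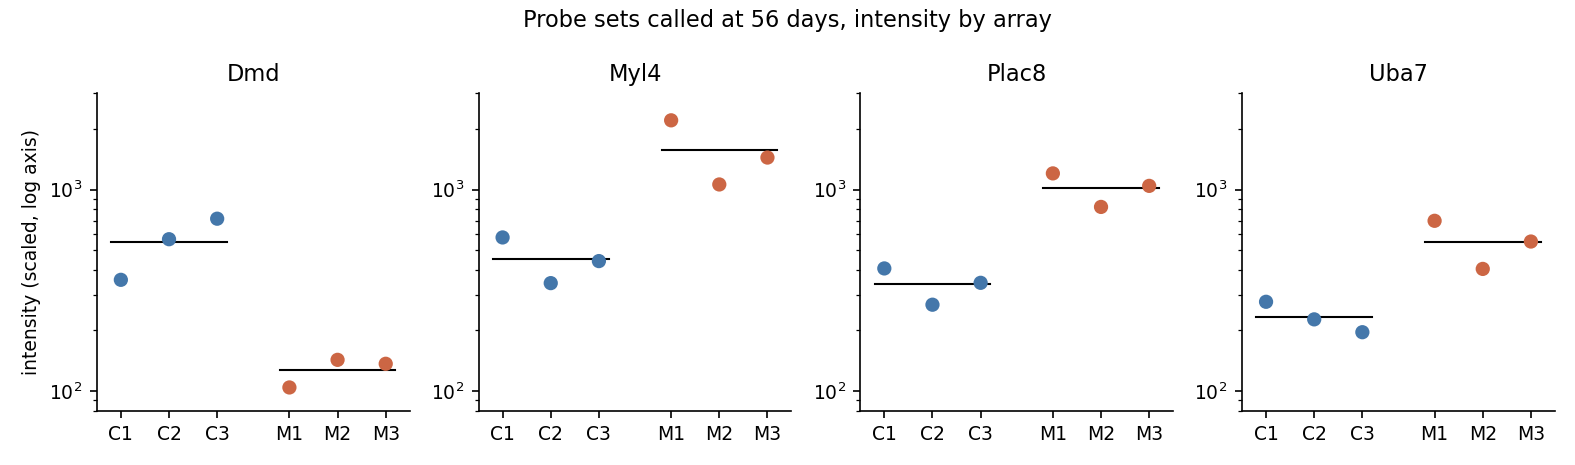
Scaled intensity (log axis) of the 4 probe sets called at 56 days in each array, with C1 to C3 the control and M1 to M3 the mdx replicates and a line at each group's mean. Dmd lies between 104 and 143 in mdx muscle, below all controls, and the other 3 genes lie above all controls.

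The number of calls moved with single arrays. Without control replicate 2, 2 probe sets were called (0.0268%): Dmd, with a log2 ratio of -1.87 (adjusted p = 0.0286), and Myl4, with 1.54 (adjusted p = 0.0275). Plac8 and Uba7 then had log2 ratios of 1.40 and 1.15, each with an adjusted p of 0.0644. Without mdx replicate 1 or mdx replicate 3, 2 were called as well. Without control replicate 1, 83 were called (1.11%), 52 higher and 31 lower, and all 4 were among them. In all 83, control replicates 2 and 3 lay on 1 side of every mdx array, while control replicate 1 lay within or beyond the mdx range in 30. At an unadjusted p under 0.05, 911 of 7453 probe sets (12.2%) passed with all arrays, 491 higher (6.59%) and 420 lower (5.64%), and 584 (7.84%) without control replicate 2, 4.7% higher and 3.14% lower. Of these, 357 passed in both fits with the same sign. The 3 mdx arrays lay above all controls for 657 probe sets (8.82%) and below them for 636 (8.53%), 17.3% in all, and the median log2 ratio of all tested probe sets was -0.0031, with 49.7% above 0. In the paragraphs that follow, genes other than these 4 did not pass the adjusted test with all arrays, and their values describe these 6 arrays.

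No partner of dystrophin was called with all arrays, where 4 of 7453 probe sets were (0.0537%). With so few calls among all probe sets, the lack of one here says little about the complex. With array weights, whose counts are approximate, 1 gene of the complex was called higher and 1 lower, against 94 and 80 of all 7453. Of 15 measured genes of the complex, Dmd was the only one called with all arrays equal. In 10 the log2 ratio was above 0, and the median was 0.10 (0.07 without control replicate 2). Utrn, the gene of utrophin, a relative of dystrophin that can take its place at the membrane, had probe sets with log2 ratios of -0.67 (adjusted p = 0.613) and -0.59 (adjusted p = 0.686). On the first of them it measured 268, 599 and 384 in control and 162, 378 and 230 in mdx muscle, and the groups overlapped. Plec, the cytoskeletal linker plectin, measured 1197, 1170 and 954 in control and 1824, 1797 and 2734 in mdx muscle. All 3 mdx arrays lay above the controls, with a log2 ratio of 0.91 ± 0.37 (SE, adjusted p = 0.356). Dag1, which encodes dystroglycan, the receptor that dystrophin binds, gave log2 ratios of 0.27 and -0.31 on its probe sets (adjusted p = 0.597 and 0.642), and the groups overlapped on each.

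Among interferon-induced genes, which cells switch on when interferon binds its receptor, 24 of the 25 tested lay higher in mdx muscle, with a median log2 ratio of 0.74 against -0.0031 for all tested probe sets. Uba7 was the only one called, and 13 of 25 had an unadjusted p under 0.05 with a higher level, where 6.59% of all tested probe sets had. In 11 of 25 the mdx arrays lay above all controls, against 8.82% of all. Without control replicate 2, 24 again lay higher, the median was 0.60 and 11 had an unadjusted p under 0.05 with a higher level (4.7% of all). Over the 25 genes, the median level relative to the control mean was 1.05 in mdx replicate 1, 0.36 in replicate 2 and 0.77 in replicate 3, on the log2 scale. In the control arrays it was 0.08, -0.13 and 0.06. All 3 mdx arrays were thus above all controls, with mdx replicate 2 nearest to them.

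Many such genes share a sequence before their start, the interferon-stimulated response element. Its core was searched for on both strands as GAAA, then any 2 bases, then GAAA, in the 300 bases from 250 before to 50 after each start in RefSeq's GRCm38.p6 promoters. Of the 25 tested genes 21 had a promoter in that table, and 12 of these (57.1%) held the motif. It was in 1079 of 27025 genes of the whole table (3.99%), in 162 of 4568 genes tested on the array (3.55%), in 2 of 15 antigen presentation genes, in 1 of 18 macrophage genes and in 0 of 16 fast muscle genes. The list was drawn up from genes known to answer to interferon, so the share describes the list and not the mdx muscle. The promoters of Rsad2, Ifit3 and Gbp3, whose values follow, are shown 5′ to 3′ along the gene's strand with the matches in capitals (here on the opposite strand, so TTTC, 2 bases and TTTC). They lie at chr12:26456403-26456702 (minus strand), chr19:34583279-34583578 (plus strand) and chr3:142559794-142560093 (plus strand). In Gbp3 a pair of matches overlaps. No match was found in the promoter of Uba7.
Rsad2: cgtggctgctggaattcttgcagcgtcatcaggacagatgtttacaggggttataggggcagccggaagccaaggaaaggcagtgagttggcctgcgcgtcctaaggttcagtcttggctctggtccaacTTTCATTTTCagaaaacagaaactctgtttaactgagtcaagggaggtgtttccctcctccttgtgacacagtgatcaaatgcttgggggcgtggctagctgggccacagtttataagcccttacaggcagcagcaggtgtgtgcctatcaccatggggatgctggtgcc
Ifit3: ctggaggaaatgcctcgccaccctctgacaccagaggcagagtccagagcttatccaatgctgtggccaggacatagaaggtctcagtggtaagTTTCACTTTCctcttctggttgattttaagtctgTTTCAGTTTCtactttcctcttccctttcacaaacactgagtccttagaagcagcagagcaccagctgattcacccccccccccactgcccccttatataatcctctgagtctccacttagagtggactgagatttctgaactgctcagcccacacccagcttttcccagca
Gbp3: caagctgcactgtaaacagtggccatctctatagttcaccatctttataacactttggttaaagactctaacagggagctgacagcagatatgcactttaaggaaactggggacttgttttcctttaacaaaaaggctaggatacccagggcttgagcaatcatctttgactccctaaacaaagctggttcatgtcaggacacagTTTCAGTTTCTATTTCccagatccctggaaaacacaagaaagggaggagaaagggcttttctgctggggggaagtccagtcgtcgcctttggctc

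Rsad2, which encodes the antiviral enzyme viperin, measured 194, 53.4 and 216 in control and 492, 299 and 555 in mdx muscle. Control replicate 2 was far below the other controls, and even without it no control array reached the mdx arrays. The log2 ratio was 1.59 ± 0.36 (SE, adjusted p = 0.129), and 1.03 without control replicate 2. Ifit3, an interferon-induced protein with tetratricopeptide repeats, measured 132, 216 and 122 in control and 754, 243 and 815 in mdx muscle, a log2 ratio of 1.71 ± 0.44 (adjusted p = 0.178). Its mdx replicates 1 and 3 were far above the controls, while mdx replicate 2 lay just above the highest of them. Gbp3, a guanylate-binding protein that acts in cellular defence, had the same shape, with 428, 539 and 487 in control and 1717, 552 and 1508 in mdx muscle (log2 ratio 1.20, adjusted p = 0.23). Gbp7, of the same family but not on the list, measured 276, 82.9 and 336 in control and 1341, 490 and 1121 in mdx muscle. With a log2 ratio of 2.09 (adjusted p = 0.129) it was called without control replicate 1 (adjusted p = 0.0344).

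The sensor of viral RNA Ifih1, the membrane proteins Ly6e and Ifitm3 and the transcription factor Irf9 had smaller log2 ratios, between 0.74 and 0.86 (adjusted p between 0.243 and 0.263). Ifih1 measured 285, 186 and 245 in control and 504, 317 and 414 in mdx muscle. Ifitm3, which hinders the entry of viruses into cells, measured 2968, 2443 and 3534 in control and 6223, 3785 and 6167 in mdx muscle. Irf9, a transcription factor of the interferon response, overlapped between groups, with 453, 202 and 362 in control and 729, 437 and 581 in mdx muscle. In Ifih1, Ifitm3 and Irf9 mdx replicate 2 was again the lowest mdx array, while in Ly6e replicates 2 and 3 were level.

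**Figure D2:**
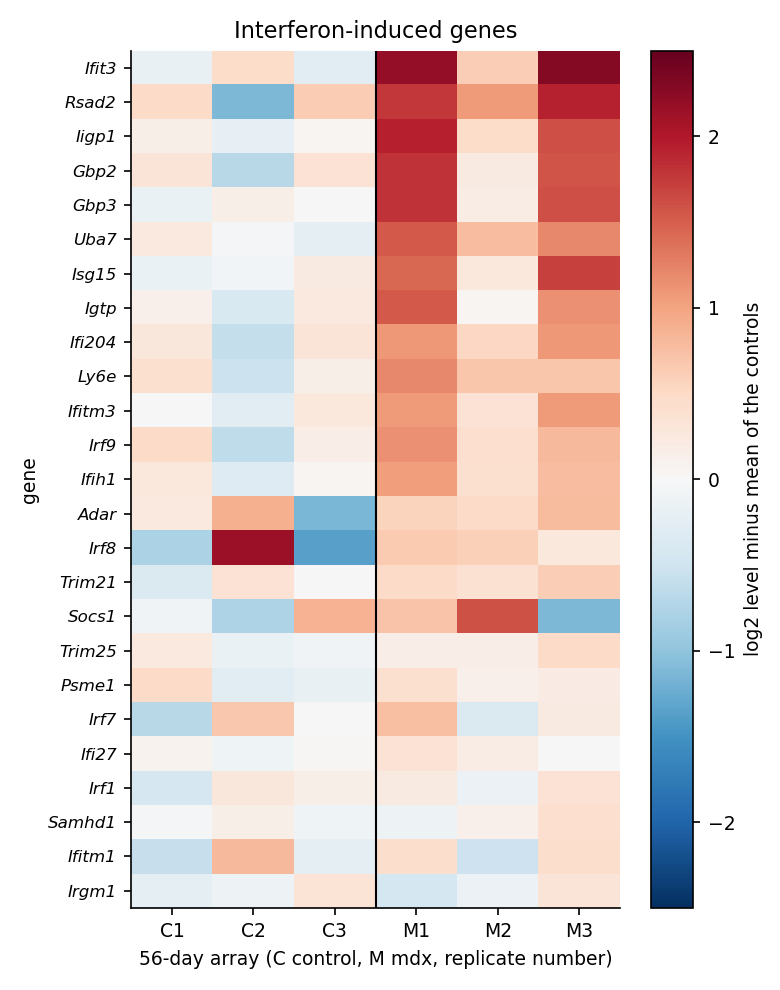
Log2 level of the 25 tested interferon-induced genes in each 56-day array (C1 to C3 control, M1 to M3 mdx) minus the mean of the 3 controls, ordered by fold change. The upper rows are red in M1 and M3 and paler in M2, and the medians over genes are 1.05, 0.36 and 0.77 in the 3 mdx arrays.

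Genes of antigen presentation, by which cells show peptides to T cells, lay higher in mdx muscle in 19 of 20 tested members, with a median log2 ratio of 0.53 (0.46 without control replicate 2). None was called, 9 had an unadjusted p under 0.05 with a higher level (6.59% of all tested probe sets had), and 4 had without control replicate 2 (4.7% of all). In 9 of 20 the mdx arrays lay above all controls, against 8.82% of all. Ctss, cathepsin S, which trims the invariant chain from class II molecules, measured 561, 513 and 526 in control and 1311, 1154 and 924 in mdx muscle. The control arrays were close together and the mdx arrays all well above them, with a log2 ratio of 1.05 ± 0.24 (SE, adjusted p = 0.129). Among class II chains, H2-Eb1 measured 941, 441 and 733 in control and 1393, 1269 and 1032 in mdx muscle. H2-Aa measured 558, 77.7 and 341 in control and 752, 822 and 695 in mdx muscle. Control replicate 2 was the lowest array for both, and the log2 ratio of H2-Aa was 1.53 with it and 0.77 without it.

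For class I, H2-Bl measured 546, 556 and 383 in control and 1017, 738 and 756 in mdx muscle, with a log2 ratio of 0.74 (adjusted p = 0.189). H2-M3 had 1.08, and 0.41 without control replicate 2, and H2-Q10 had 0.76. Class I genes are near-identical copies of each other, so probes of one may report on another. Tap1, a subunit of the peptide pump that loads class I molecules, measured 319, 374 and 247 in control and 743, 352 and 477 in mdx muscle, and its groups overlapped through mdx replicate 2. The immunoproteasome subunit Psmb10 had a log2 ratio of 0.53 (adjusted p = 0.285), and its groups overlapped as well.

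Macrophage and monocyte genes were higher in mdx muscle in 20 of 23 tested members, with a median log2 ratio of 0.39 (0.41 without control replicate 2). Plac8 was the only one called, and 6 had an unadjusted p under 0.05 with a higher level in either fit (6.59% of all with all arrays, 4.7% without control replicate 2). In 8 of 23 the mdx arrays lay above all controls, against 8.82% of all. Ctss stands on this list too. Mpeg1, the pore-forming protein perforin-2 of phagocytes, measured 296, 190 and 412 in control and 819, 686 and 520 in mdx muscle, a log2 ratio of 1.17 ± 0.33 (SE, adjusted p = 0.189). Cd14, the receptor for bacterial lipopolysaccharide, measured 643, 542 and 657 in control and 1020, 1069 and 737 in mdx muscle, a log2 ratio of 0.59 (adjusted p = 0.234). Both genes had all mdx arrays above the controls. Cd52, a small surface glycoprotein of leukocytes, and Cyba, a subunit of the phagocyte oxidase, had log2 ratios of 0.76 and 0.47.

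Some markers that define macrophages were level or too dim to test. Csf1r, the receptor for the macrophage growth factor, measured 689, 778 and 604 in control and 766, 709 and 624 in mdx muscle on its brighter probe set, a log2 ratio of 0.02 (adjusted p = 0.976). A dimmer Csf1r probe set of relaxed design (suffix _r_at) had -1.86, with 1616 in control replicate 2 and between 91.7 and 373 elsewhere. Adgre1, which encodes the marker F4/80, was too dim to be tested, with 112, 44.1 and 35.4 in control and 62, 46.3 and 128 in mdx muscle. The summed intensity of the tested macrophage genes was 17210 to 22870 in control and 25010 to 29760 in mdx arrays. Laptm5, a lysosomal protein of leukocytes, gave log2 ratios of 0.40 and 1.51 on its probe sets. On the second it measured 230, 120 and 208 in control and 640, 551 and 446 in mdx muscle (adjusted p = 0.228).

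Complement, a cascade of blood and tissue proteins that marks targets for phagocytes, had a median log2 ratio of 0.42 over 12 tested genes, 10 of them higher, and 0.39 without control replicate 2. C1qc, a chain of its recognition molecule C1q that macrophages make, measured 1460, 578 and 1017 in control and 2149, 1708 and 2012 in mdx muscle, a log2 ratio of 1.02 ± 0.26 (SE, adjusted p = 0.178). C3ar1, the receptor of the fragment C3a, had 0.66, the inhibitor clusterin (Clu) had 0.37 and properdin (Cfp) had 0.75. In these 4 of 12 every mdx array lay above the controls, where 8.82% of all tested probe sets did. None of the 12 was called with all arrays. In limma 4 had an unadjusted p under 0.05 with a higher level (6.59% of all), and 5 had without control replicate 2 (4.7% of all). Of 11 tested chemokine and cytokine genes 8 lay higher, with a median of 0.25 (0.30 without control replicate 2). Ccl8, which attracts monocytes and T cells, measured 47.1, 92.5 and 110 in control and 449, 309 and 222 in mdx muscle, a log2 ratio of 1.79 ± 0.48 (adjusted p = 0.189). Its mdx arrays all lay above the controls, where it was dim. Ccr2, the receptor by which monocytes leave the blood, had a log2 ratio of 0.54 and Ccl6 of 0.93.

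Jak3, the kinase behind cytokine receptors of lymphocytes, measured 345, 122 and 106 in control and 629, 501 and 404 in mdx muscle. All mdx arrays were above the controls, with a log2 ratio of 1.51 ± 0.33 (adjusted p = 0.129), and it was called without control replicate 1 (adjusted p = 0.00192). Markers of lymphocytes were mostly too dim to test: 7 of 23 on the array were tested, with a median log2 ratio of 0.34 (0.42 without control replicate 2, 0.03 without control replicate 1). Cd3e, a subunit of the T cell receptor complex, lay between 27.7 and 72.4 on the 6 arrays. An immunoglobulin light chain segment, Igkv4-68, measured 29.5, 42.7 and 32.4 in control and 188, 263 and 118 in mdx muscle. A heavy chain segment, Ighv1-54, measured 11.7, 52.5 and 70.7 in control and 188, 177 and 174 in mdx muscle. The log2 ratios were 1.96 and 1.84 (adjusted p = 0.228 and 0.211). Such segments belong to large families of similar sequence, so other members may contribute to the signal.

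Muscle genes were higher in mdx arrays too, but on these the control arrays themselves differed widely. Of 21 tested fast muscle isoforms, the contractile and metabolic proteins typical of fast-twitch fibres, 18 had a log2 ratio above 0. The median was 0.60 with all arrays, 0.36 without control replicate 2 and 0.26 with quantile normalization. None was called, and 5 had an unadjusted p under 0.05 with a higher level (6.59% of all), against 1 without control replicate 2 (4.7% of all). The median level over the 21 genes, relative to the control mean, was 0.45 in control replicate 1, -0.45 in replicate 2 and -0.02 in replicate 3. In mdx replicates 1 to 3 it was 0.85, 0.59 and 0.45. Control replicate 1 thus lay at the level of mdx replicate 3.

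Tnni2, the fast isoform of the inhibitory troponin subunit, measured 1434, 649 and 903 in control and 1916, 1888 and 1802 in mdx muscle. The mdx arrays were close together above all controls, with a log2 ratio of 0.97 ± 0.21 (SE, adjusted p = 0.129). It was called without control replicate 1 (adjusted p = 0.00305), as were Eno3 and Myl1. Eno3, the muscle form of the glycolytic enzyme enolase, measured 9254, 1257 and 2481 in control and 13580, 8425 and 6859 in mdx muscle, so that control replicate 1 lay within the mdx range. Myl1, the fast alkali light chain of myosin, ranged most widely, with 9477, 266 and 939 in control and 14850, 6325 and 4902 in mdx muscle. Its log2 ratio was 2.50 ± 1.00 with all arrays and 1.36 without control replicate 2. The skeletal actin gene Acta1, with 2662, 290 and 502 in control and 11380, 6941 and 1430 in mdx muscle, had a log2 ratio of 2.69 ± 1.18 (adjusted p = 0.378), and its groups overlapped through mdx replicate 3.

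Among the other named fast isoforms, Tnnc2, the fast calcium-binding troponin subunit, had a log2 ratio of 2.15 (adjusted p = 0.414), Casq1, the calcium store protein of fast fibres, had 1.07, Pygm, muscle glycogen phosphorylase, had 0.60, and Pgam2, muscle phosphoglycerate mutase, had 0.43. All lay higher in mdx muscle on average, but Pgam2 changed sign with quantile normalization, to -0.04. Tpm1, a tropomyosin, went the other way, with 599, 1193 and 726 in control and 529, 535 and 419 in mdx muscle. All its mdx arrays lay below the controls (log2 ratio -0.69, adjusted p = 0.372). The errors of the myosin heavy chains come from all 8 groups of the fit, and none of these genes was called. Myh1, the fast IIx chain, had 0.69 ± 0.35 (adjusted p = 0.43) and Myh4, the fast IIb chain, 0.88 ± 0.73 (adjusted p = 0.656). The embryonic chain Myh3 measured 4819, 4441 and 5643 in control and 5087, 4576 and 5049 in mdx muscle. The perinatal chain Myh8 measured 1367, 1758 and 1578 in control and 1352, 1609 and 1839 in mdx muscle. Their groups overlapped, with log2 ratios of -0.01 ± 0.94 and 0.03 ± 0.50.

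Slow muscle isoforms gave a median log2 ratio of 0.39 over 13 tested genes, 8 of them higher, and 0.14 without control replicate 2. Mb, whose product stores oxygen, measured 7696, 3943 and 5979 in control and 11750, 8213 and 10380 in mdx muscle, a log2 ratio of 0.82 ± 0.33 (adjusted p = 0.341). Myl2, the slow and cardiac regulatory light chain, had 0.50, Tnni1, the slow inhibitory troponin, 0.62, and Tpm3, the slow tropomyosin, 1.49. The ventricular and slow light chain Myl3 lay lower in all 3 mdx arrays, with 1068, 1292 and 1084 in control and 638, 654 and 592 in mdx muscle. Its log2 ratio was -0.85 ± 0.59 (adjusted p = 0.584), where the error comes from all 8 groups of the fit.

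**Figure D3:**
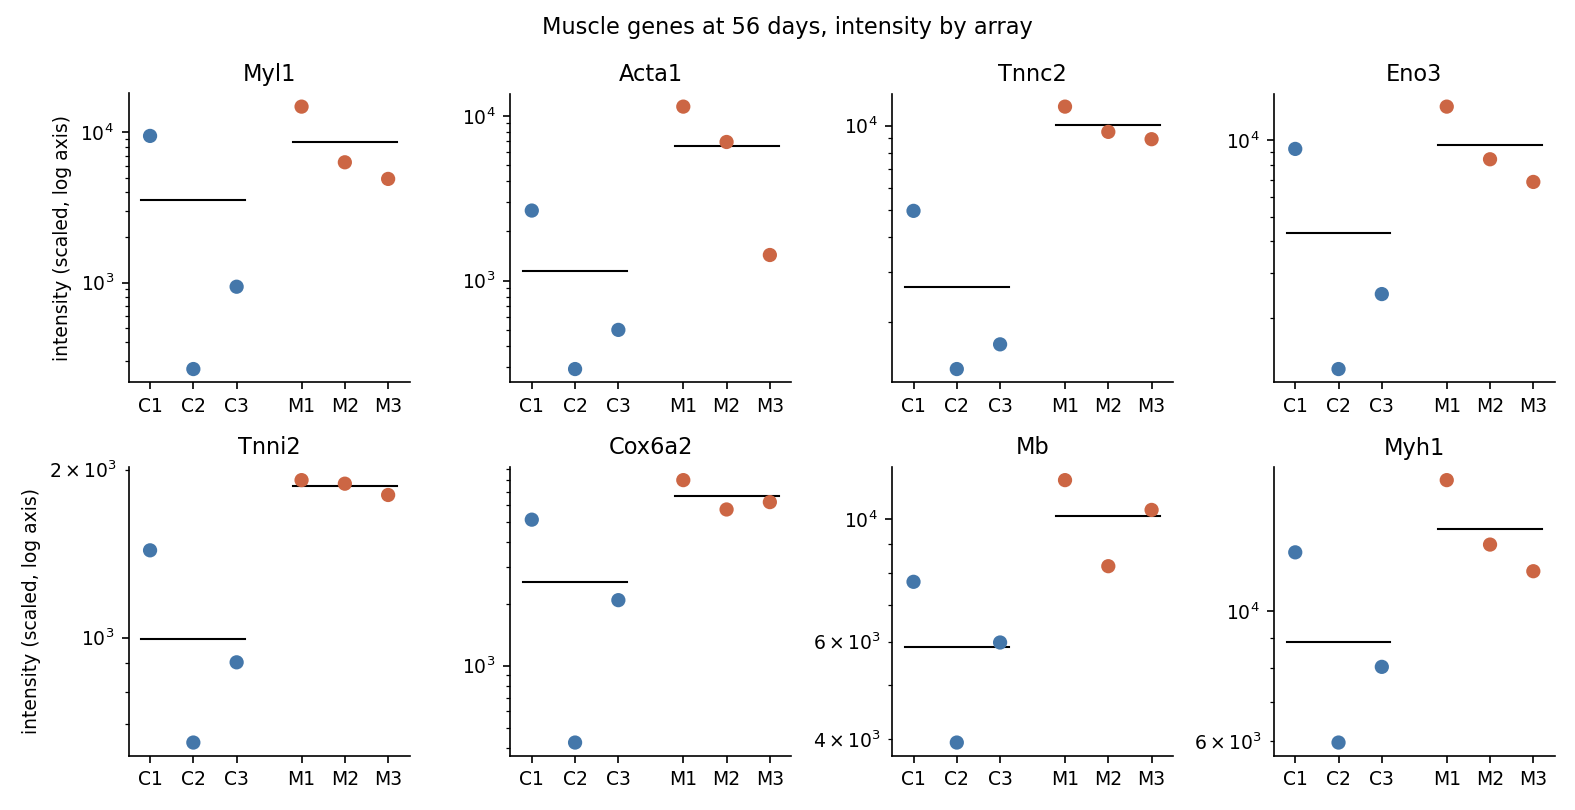
Scaled intensity (log axis) of 8 muscle genes in each 56-day array, with C1 to C3 the control and M1 to M3 the mdx replicates and a line at each group's mean. C2 is the lowest array in every panel, and C1 lies within the mdx range for Myl1, Acta1, Eno3 and Myh1.

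Genes of oxidative phosphorylation, the respiratory chain of the mitochondrion, lay higher in 47 of 59 tested members, with a median log2 ratio of 0.29. The median was 0.12 without control replicate 2 and 0.03 with quantile normalization, with 34 of 59 higher. Cox6a2, the heart and muscle form of a cytochrome oxidase subunit, measured 5112, 424 and 2080 in control and 7951, 5728 and 6219 in mdx muscle. All mdx arrays were above the controls, of which replicate 2 was far the lowest, and the log2 ratio was 1.97 ± 0.61 (adjusted p = 0.234), or 1.01 without control replicate 2. Ndufs3 of complex I and Atp5k of the ATP synthase had 0.63 each and Ndufb5 had 1.36. Slc25a4, which exchanges ADP for ATP across the inner membrane of muscle mitochondria, measured 9642, 1986 and 4331 in control and 16660, 10220 and 9108 in mdx muscle (log2 ratio 1.40, adjusted p = 0.254). It was called without control replicate 1 (adjusted p = 0.0344), and its groups overlapped through that array.

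Some genes that handle fatty acids lay lower in mdx muscle. The whole list, which joins fatty acid oxidation to the citric acid cycle, had a median log2 ratio of 0.00044, and -0.14 without control replicate 2. Of its 36 tested genes 18 lay higher and 18 lower. The mdx arrays lay below all controls in 4 of 36, a share similar to the 8.53% of all tested probe sets. Cd36, the transporter that brings fatty acids into fibres and vessel cells, measured 1334, 1421 and 1645 in control and 570, 819 and 835 in mdx muscle. Control replicate 2 was not apart here, and all mdx arrays lay below the controls, with a log2 ratio of -0.98 ± 0.30 (SE, adjusted p = 0.234). Acadl, the long-chain acyl-CoA dehydrogenase of fatty acid oxidation, measured 3388, 3415 and 4474 in control and 1766, 2552 and 2791 in mdx muscle, a log2 ratio of -0.68 ± 0.24 (adjusted p = 0.285). Ucp3, an uncoupling protein of muscle mitochondria, had -0.50. Fabp4, a fatty acid carrier of adipocytes and capillaries that stands on the adipocyte list and not on this one, had -0.74. Cd36, Acadl, Ucp3 and Fabp4 had every mdx array below every control array. In the list of 36 genes Mdh2, mitochondrial malate dehydrogenase, had 1.11. Of the glycolytic genes, Pgk1 had 0.70 and was called without control replicate 1 (adjusted p = 0.0406), and Pkm had 0.84.

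Markers of endothelium and the vessel wall lay lower in 15 of 20 tested genes, with a median log2 ratio of -0.28 (-0.21 without control replicate 2). None was called, and the mdx arrays lay below all controls in 6 of 20, where 8.53% of all tested probe sets did. Cdh5, the cadherin that joins endothelial cells, measured 1482, 1712 and 1529 in control and 940, 1207 and 1111 in mdx muscle, a log2 ratio of -0.53 ± 0.22 (adjusted p = 0.362). Flt1, a receptor for vascular endothelial growth factor, had -0.42. Tie1, an endothelial receptor kinase, had -0.40 on its brighter probe set, with 765, 714 and 785 in control and 653, 617 and 453 in mdx muscle, and 0.25 on another. The summed intensity of the tested genes was 14970 to 16480 in control and 13750 to 15120 in mdx arrays, so it overlapped. The part of vessel content in the lower fatty acid genes, some of which capillaries express, was not tested.

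**Figure D4:**
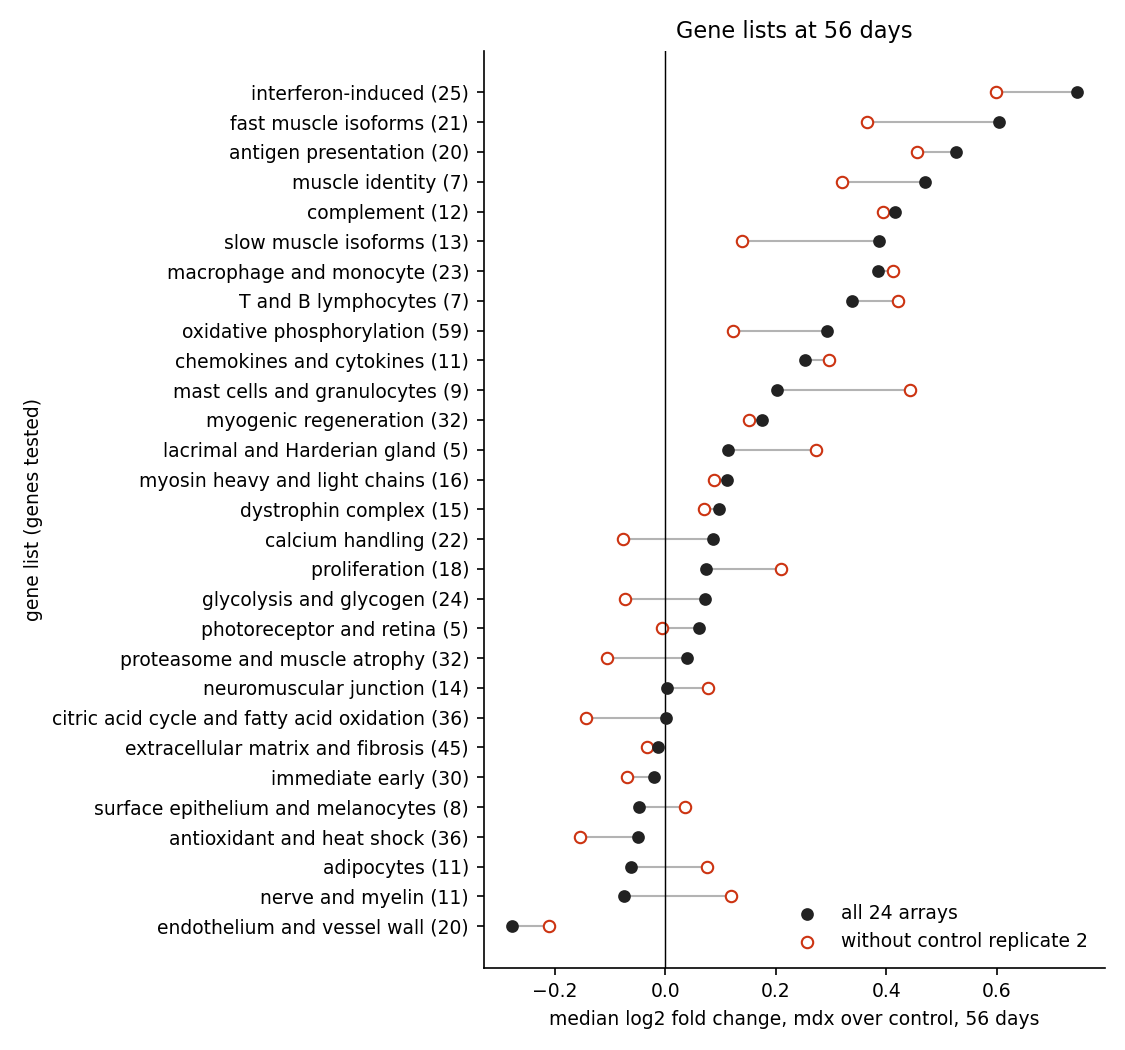
Median log2 ratio (mdx over control at 56 days) of the 29 gene lists with at least 5 tested genes, with the number tested in brackets, with all arrays (filled) and without control replicate 2 (open). The interferon-induced list is highest at 0.74 and 0.60, and fast muscle isoforms move with the array from 0.60 to 0.36, slow ones from 0.39 to 0.14.

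The regeneration list joins genes of satellite cells and new fibres to others, such as Des and Igf1, that are not particular to them. Fibres of extraocular muscle also keep embryonic forms, as said above, so the list does not single out new fibres. Of its 32 tested members 24 lay higher, with a median log2 ratio of 0.18 (0.15 without control replicate 2), and Myl4 was the only one called. Whether fibres regenerated was not tested. Tnnt2, the cardiac troponin T that embryonic muscle also uses, measured 314, 452 and 377 in control and 601, 486 and 605 in mdx muscle (log2 ratio 0.55, adjusted p = 0.437). Igf1, a growth factor made by fibres and macrophages, measured 916, 1084 and 1055 in control and 1876, 1177 and 1490 in mdx muscle (0.54, adjusted p = 0.427). Both had all mdx arrays above the controls, as had 6 of the 32 in all, against 8.82% of all tested probe sets. Des, the intermediate filament desmin, had 0.59, with overlapping groups. Among 18 proliferation genes the signs were mixed, with a median of 0.07 (0.21 without control replicate 2). An unadjusted p under 0.05 with a higher level was found in 4 (6.59% of all tested probe sets). Without control replicate 2 it was found in 5 (4.7% of all), and in each fit 1 gene passed with a lower level. Ccna2, a cyclin of dividing cells, measured 126, 87.4 and 78.8 in control and 474, 301 and 194 in mdx muscle (log2 ratio 1.52, adjusted p = 0.255), and Cdc20, which drives exit from mitosis, had 0.69. Tk1, thymidine kinase, had 1.32 with overlapping groups. Pcna, the sliding clamp of DNA replication, lay lower in all mdx arrays (-0.55, adjusted p = 0.334).

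Extracellular matrix genes, which rise in fibrosis, were as often lower as higher, 23 against 22 of 45 tested, with a median log2 ratio of -0.01. The median was -0.03 without control replicate 2. Pcolce, which helps to process procollagen, had 0.83, and 0.33 without control replicate 2, Col8a1, a collagen of vessel walls, had 0.50, Sparc, a matrix protein, had -0.42 and Nid1, nidogen of the basement membrane, had -0.81. The early response genes, which answer within minutes to stress and handling of tissue, had a median of -0.02 over 30 genes. Without control replicate 2 the median was -0.07. Jun measured 264, 457 and 343 in control and 210, 269 and 160 in mdx muscle (-0.69, adjusted p = 0.285), with overlapping groups, and Dusp1 had -0.46 and Ier3 0.76. At the junction of nerve and muscle, Rapsn, which clusters acetylcholine receptors, measured 1147, 696 and 748 in control and 1396, 1206 and 1149 in mdx muscle. All its mdx arrays lay above the controls, control replicate 1 only just below, with a log2 ratio of 0.56 ± 0.17 (adjusted p = 0.228), and it was called without control replicate 1 (adjusted p = 0.0263). Colq, which anchors acetylcholinesterase there, had -0.88, with control replicate 2 the highest array.

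Of the stress genes, Mt2, a metallothionein that binds zinc and copper, measured 929, 1359 and 1670 in control and 2103, 3620 and 2669 in mdx muscle. All mdx arrays lay above the controls, with a log2 ratio of 1.08 ± 0.35 (SE, adjusted p = 0.252) and 1.12 without control replicate 2. Gpx3, a secreted glutathione peroxidase, had 0.79 and was called without control replicate 1 (adjusted p = 0.0459). Hspd1, the mitochondrial chaperonin, measured 6414, 5757 and 8158 in control and 2509, 7150 and 3707 in mdx muscle, with mdx replicate 2 among the controls (-0.72, adjusted p = 0.349). The list as a whole had a median of -0.05 over 36 genes (-0.15 without control replicate 2). Of the proteasome genes, Psmd14, Psmd8 and Psma1 had log2 ratios of -0.40, -0.67 and -0.65. The list of 32 had a median of 0.04, with 19 higher. Without control replicate 2 the sign turned, to a median of -0.105 with 9 higher.

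By size alone, 280 probe sets with 1 gene symbol had an unadjusted p under 0.05 with and without control replicate 2, the same sign, and groups that did not overlap, 145 higher and 135 lower. The highest 12 genes by fold were Gbp7, Pcnt, Igkv4-68, Ighv1-54, Hs3st3a1, Pimreg, Ccl8, Rasal3, Myl4, Ifit3, Gja4 and Ptafr, with log2 ratios from 1.65 to 2.09. Most of these were dim in control muscle, and the offset of 16 added before logs lowers such folds. Pimreg, a gene of dividing cells, measured 52.7, 46 and 30.6 in control and 325, 220 and 87.9 in mdx muscle. Rasal3, a Ras GTPase-activating protein of blood cells, measured 34.7, 74.2 and 58.2 in control and 351, 144 and 220 in mdx muscle. Ptafr, the receptor for platelet-activating factor, measured 30.7, 48.5 and 55 in control and 219, 242 and 92.6 in mdx muscle.

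The lowest 12 were Dmd, Csf1r on its dimmer probe set, Srsf10, Erdr1, Gpcpd1, Hltf, Slc6a18, Anks3, Vamp7, Fzd7, AI506816 and Fbp2, with log2 ratios from -1.92 to -1.20. Erdr1, a gene of the pairing region of the sex chromosomes, measured 2508, 1554 and 1521 in control and 653, 748 and 379 in mdx muscle, with every mdx array far below the controls. Its log2 ratio was -1.64 ± 0.36 (SE, adjusted p = 0.129) and -1.75 without control replicate 2, and a second, dimmer probe set had -0.97 with overlapping groups. On the first probe set the log2 ratio was -1.26, -1.72 and -1.04 at 14, 28 and 112 days. The 56-day value lay only 0.30 ± 0.42 (SE) below the mean of those ages, so the lower level was not particular to 56 days. Gpcpd1, a phosphodiesterase of choline metabolism, measured 663, 1071 and 1152 in control and 167, 396 and 454 in mdx muscle on a probe set of relaxed design. Fbp2, the muscle form of fructose bisphosphatase, measured 232, 323 and 378 in control and 43.1, 227 and 175 in mdx muscle. Its highest mdx array lay close to its lowest control. Of the named genes, 23 had more than 1 tested probe set, and 14 of these had 1 sign on all of them. Probe sets disagreed in sign for Bag6, Ccni, Csf1r, Dag1, Galm, Igf1, Ptafr, Srsf10 and Tie1.

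Without control replicate 1, the largest rises among the 52 higher calls were in Myl1, Cox6a2, Eno3, Gbp7, Sox4, Jak3, Slc25a4, Bag6, Myl4 and Rsad2. Sox4, a transcription factor, measured 405, 61.1 and 207 in control and 539, 588 and 432 in mdx muscle, and its log2 ratio without that array was 2.02 (adjusted p = 0.00305). The largest falls among the 31 lower calls were in Ncam1, Csf1r, Dmd, Sf1, Ccni, Clp1, Fzd7, Galm, Lpin2 and Fgfr1op2. In these, besides Dmd and Ccni, control replicate 2 was the highest array. Ncam1, a neural cell adhesion molecule, measured 2458 in control replicate 2 and 139 and 203 in the other controls, against 165, 85.8 and 91.3 in mdx muscle. Fzd7, a Wnt receptor, measured 189, 644 and 303 in control and 109, 148 and 138 in mdx muscle, and its mdx arrays lay below all controls. The calls of this fit rest on control replicate 3 and the array that stood apart. Of the 83 probe sets, 48 had an unadjusted p under 0.05 with the same sign when control replicate 2 was left out in place of replicate 1. Of all tested probe sets 7.84% had such a p, with either sign. Both fits hold control replicate 3 and all mdx arrays, so this agreement is partly built in and is no separate support.

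The 56-day difference was then set against the mean difference at the other 3 ages, whose arrays are separate. None of 7453 probe sets was called in this contrast by limma, and 922 (12.4%) had an unadjusted p under 0.05. Plac8 had a 56-day log2 ratio 1.29 ± 0.29 (SE) above the mean of the other ages and Uba7 1.01 ± 0.23, each with an adjusted p of 0.201. In Plac8 the log2 ratio was -0.26, 0.50 and 0.51 at 14, 28 and 112 days, and in Uba7 -0.16, 0.03 and 0.59. Dmd lay below 0 and Myl4 above 0 at all 4 ages. At each of 14, 28 and 112 days 1 probe set was called (0.0134%), and at 112 days it was Myl4, with a log2 ratio of 1.47 (adjusted p = 0.0151). Control levels of Uba7 were lowest at 56 days, at 234 ± 41.2 (SD, n = 3), against 394 ± 35.6 at 14, 374 ± 30.7 at 28 and 281 ± 14.1 at 112 days. Its mdx level was 552 ± 148 at 56 days and between 356 and 430 at the other ages. For Dmd, by contrast, the control level was highest at 56 days, while the mdx level lay between 115 and 134 at every age.

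**Figure D5:**
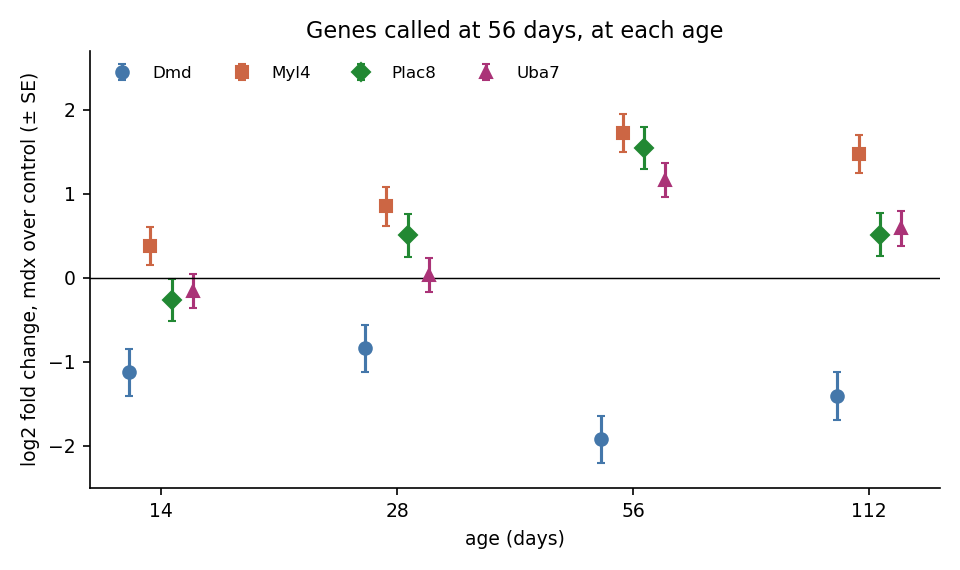
Log2 fold change (mdx over control, ± SE from the fit) at 14, 28, 56 and 112 days for the 4 genes called at 56 days, with points set slightly apart along the age axis. Dmd lies below 0 and Myl4 above 0 at every age, while Plac8 and Uba7 are highest at 56 days, at 1.55 and 1.17.

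The lists had other medians at other ages. The median log2 ratio of interferon-induced genes was -0.04, 0.11 and 0.50 at 14, 28 and 112 days, beside 0.74 at 56 days. That of antigen presentation was 0.07, 0.13 and 0.47, and that of macrophage genes 0.04, 0.26 and 0.32. Fast muscle isoforms, at 0.60 at 56 days, had -0.18, -0.33 and -0.06 at the other ages, and oxidative phosphorylation -0.16, -0.18 and -0.03. The difference between ages was tested gene by gene, as above, and not for lists. Across all tested probe sets, the 56-day log2 ratios correlated with those at 14, 28 and 112 days at r of -0.17, -0.12 and 0.03. Without control replicate 2 of 56 days, r was -0.335, -0.109 and 0.00857. These values describe probe sets that are not independent.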

How the data were processed

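Total RNA of mouse extraocular muscle was measured on 24 1-colour Affymetrix arrays, which were assigned to 8 groups of 3 by their titles. The deposited values are intensities, 1 per probe set and array; per the labels a standard Affymetrix procedure was used, and no software is named. Trimmed means of the deposited arrays (2% cut at each end) lay between 1500.5 and 1500.9, so they had been scaled to a common level. Depth has no meaning for arrays, and the number of arrays limits the precision.

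From these values, 44 that were under 1 were set to 1, each array was scaled to a trimmed mean of 500, and 16 was added before log2. Of 12488 probe sets, 66 array controls were left out, and 7453 at or above the 40th percentile of mean log2 level (an intensity of 125.7) were tested. Gene symbols came from the platform annotation: 10833 probe sets had 1 symbol, 396 several and 1193 none, and 10817 symbols matched RefSeq. The brightest probe set stood for a gene in gene lists. The model, in limma 3.58.1 (R 4.3.3), used all 24 arrays and 1 mean per group (16 residual degrees of freedom), moderated with an intensity trend, two-sided, and adjusted by Benjamini-Hochberg over all tested probe sets. An exact permutation test of 3 against 3 arrays cannot go below p = 0.1, so none was run. The fit was also run on simulated data with independent noise, of the same spread on every array. That run held no array that stood apart, so it does not cover the differences between arrays seen here.

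The comparison, the gene lists and the tests were chosen with earlier results of these data known. Named genes are the called genes, members of the dystrophin complex and the myosin chains, the 12 highest and 12 lowest by fold with groups apart, up to 10 each way called without control replicate 1 or 2, the 4 (or 8, in the main lists) smallest p-values of each list, and defining cell markers. Alternatives changed the filter, the offset, the floor, the normalization, array weights, the arrays and the model. Replicate numbers gave no clear pairing of the arrays at 56 days. Deviations from the group means correlated between control and mdx at r = -0.02, 0.01 and 0.19 for replicates 1, 2 and 3. At the other ages, which enter the same fit, r lay between -0.0233 (14 days) and 0.322 (28 days). The main fit leaves out any pairing, and the fit with the replicate number as a block called 12 probe sets.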

Additional observations from a re-analysis of the deposited data

Results flagged for a closer look

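In 9 gene lists, the median over genes of all 3 mdx arrays at 56 days lay on 1 side of the control mean, and that of all 3 mdx arrays at another age on the opposite side. These differences between ages were not tested for lists, and the contrast of ages called 0 single probe sets with limma (922 at an unadjusted p under 0.05).

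The interferon-induced genes had a median log2 fold change of 0.744 at 56 days and -0.0443 at 14 days. The fast muscle isoforms had 0.603, against -0.328 at 28 days. Muscle identity genes had 0.47, against -0.328 at 28 and -0.14 at 112 days. Oxidative phosphorylation had 0.293, against -0.181 at 28 days. The myosin chains had 0.111, against -0.207 at 14 and -0.175 at 28 days. Calcium handling genes had 0.0866, against -0.0547 at 28 and -0.0313 at 112 days, but -0.0775 at 56 days without control replicate 2 and -0.0208 without control replicate 1, so the opposite side was lost. Glycolysis and glycogen genes had 0.0716, against -0.0933 at 28 days, but -0.0737 at 56 days without control replicate 2, on the same side as at 28 days. Markers of mast cells and granulocytes had 0.202, against -0.184 at 112 days, and -0.0375 at 56 days without control replicate 1 and 0.443 without control replicate 2. Endothelium and vessel wall genes had -0.278, against 0.194 at 112 days. The control arrays of 56 days differed among themselves in the fast muscle isoforms, as given above, and the part of this in the differences was not tested.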

How the results depend on the processing

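The 4 calls became 0 in a fit of only the 6 arrays (689 at an unadjusted p under 0.05), 12 with the replicate number as a block and 174 with array weights, and ranged from 2 to 83 when 1 array was left out: 83 without control replicate 1, 2 without control replicate 2, 7 without control replicate 3, and 2, 4 and 2 without mdx replicates 1, 2 and 3. The 2 calls without control replicate 2 became 0 with only the other 5 arrays (860 unadjusted), 4 with no filter, 1 with the stricter filter, 11 with the replicate block, 15 with array weights, 6 with no intensity trend and 0 with each array's largest intensity as a covariate (443 unadjusted), and 0 to 5 with another array left out. The contrast of ages called 0, 1 with no filter, 74 with array weights and 0 with the block, and 0 to 50 with 1 array left out (50 without control replicate 1, 3 without control replicate 3). It could not be fitted on the 6 arrays.

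Dmd ranged from -2.19 to -1.71 with 1 array left out. With only the 6 arrays it was -1.92 (adjusted p = 0.291), with the replicate block -1.92 (adjusted p = 0.01), and the stricter filter removed it. Dmd was called in 15 of 16 alternatives, Myl4 in 16, Plac8 in 13 and Uba7 in 10 of 17. Myl4 was lost with only 6 arrays (adjusted p = 0.291). Plac8 was lost with only 6 arrays, and when control replicate 2, mdx replicate 1 or mdx replicate 3 was dropped, at adjusted p = 0.236, 0.0644, 0.139 and 0.0819. Uba7 was also lost there (0.512, 0.0644, 0.217 and 0.151), without control replicate 3 (0.102), without control replicate 2 and a 112-day control (0.0601), and with the covariate (0.121). Of 2235 values of named genes under an alternative, 2150 kept sign and side, 12 lost a call, 63 gained one and 10 reversed. Reversed were Csf1r (-0.0452 with the covariate, and -0.0689 to 0.11 with arrays left out, -0.0453 without mdx replicate 1), Myh8 (-0.0105 with quantile normalization, and -0.0793 to 0.14 with arrays left out), Myh3 (0.0795 with the covariate, and -0.0902 to 0.082 with arrays left out) and Pgam2 (-0.0427 with quantile normalization). Over 17 alternatives the list medians ranged from 0.50 to 0.91 for interferon, 0.34 to 0.63 for antigen presentation, 0.27 to 0.45 for macrophages, 0.18 to 0.80 for fast muscle and 0.03 to 0.46 for oxidative phosphorylation, with no change of sign. The sign changed in 5 of the 17 for calcium handling, in 2 for glycolysis and in 1 for mast cells and granulocytes. The array weights did not fully converge, so counts with them are approximate. The causes were not tested.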

Other observations

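Of 5 tested markers of the glands around the eye 4 lay higher in mdx muscle, with a median log2 ratio of 0.11. Without control replicate 2, 3 lay higher and the median was 0.27. The values of 3 of the markers follow. Dmbt1, a secreted mucosal glycoprotein, measured 55.1, 56.5 and 38 in control and 363, 86.2 and 132 in mdx muscle, a log2 ratio of 1.45 (adjusted p = 0.178). Klk1b1, a tissue kallikrein of a large family of similar genes, measured 106, 72.6 and 44.3 in control and 327, 205 and 240 in mdx muscle, with 1.63 (adjusted p = 0.208). Amy1, an amylase, lay the other way, with 323, 201 and 365 in control and 212, 243 and 201 in mdx muscle (-0.37, adjusted p = 0.66). All mdx arrays lay above the controls for Dmbt1 and Klk1b1, which were dim, while the groups overlapped for Amy1. Of all tested probe sets 8.82% had all mdx arrays above the controls. In limma 2 of the 5 markers had an unadjusted p under 0.05 with a higher level in either fit. The share of all tested probe sets was 6.59% with all arrays and 4.7% without control replicate 2. The summed intensity of the 5 markers overlapped, at 4662 to 4999 in control and 4798 to 6074 in mdx arrays. None of them was called with all arrays equal. With array weights, whose counts are approximate, 2 of the 5 were called higher, against 94 of all 7453 probe sets.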
